A study of Rattus norvegicus with 5 samples.

Results

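The uncoupling proteins and the regulators of heat production in fat were followed in the mesenteric fat that surrounds the pancreas. The set was a list of 10 genes, Ucp1, Ucp2, Ucp3, Ppargc1a, Ppargc1b, Prdm16, Dio2, Elovl3, Cidea and Esrra, and every probe set annotated with exactly 1 of these symbols was taken. This gave 14 of the 31042 non-control probe sets on the array. The arrays came from male Wistar rats, 7 weeks old at the start, of which 2 had been kept on cafeteria food (fat giving 66% of calories) and 3 on standard chow (fat giving 8%), each for 30 days. Cafeteria feeding is a regimen used to make rats obese, and each array carried the RNA of an independent sample. All values are log2 expression levels, so a difference of 1 is a doubling, and differences are cafeteria minus standard.

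Brown and beige fat cells burn fatty acids to make heat. UCP1, in the inner mitochondrial membrane, lets protons flow back without making ATP. Its gene is switched on by adrenergic signals through cAMP, by thyroid hormone that DIO2 activates inside the cell, and by nuclear receptors with the coactivator PGC-1alpha (Ppargc1a). PRDM16 holds the brown fat programme in mice. White fat, such as the mesenteric depot, normally makes little UCP1, while the related carriers UCP2 and UCP3 have wider roles in mitochondria.

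The upstream 250 bases of 3 of these genes are shown because they carry the letters that the pathway would read, or because the genes are neighbours. Ucp3 and Ucp2 lie next to each other on chromosome 1 with 0 genes listed between them in RefSeq, and their starts are 23463 bases apart. The sequences are from RefSeq on build GRCr8, plus strand, read 5′ to 3′ and ending at the base before the gene start. The motifs searched on both strands were the cAMP response element TGACGTCA, the ERR element TNAAGGTCA, the nuclear receptor half-site AGGTCA and the GC box GGGCGG. The ERR element contains the half-site. Capitals mark every match.
Ucp3, chr1:164227660-164227909: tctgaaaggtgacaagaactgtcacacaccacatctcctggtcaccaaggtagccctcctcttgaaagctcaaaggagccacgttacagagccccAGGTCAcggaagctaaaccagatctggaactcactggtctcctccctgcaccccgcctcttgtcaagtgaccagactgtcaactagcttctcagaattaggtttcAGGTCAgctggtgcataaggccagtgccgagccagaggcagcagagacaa
Ucp2, chr1:164251123-164251372: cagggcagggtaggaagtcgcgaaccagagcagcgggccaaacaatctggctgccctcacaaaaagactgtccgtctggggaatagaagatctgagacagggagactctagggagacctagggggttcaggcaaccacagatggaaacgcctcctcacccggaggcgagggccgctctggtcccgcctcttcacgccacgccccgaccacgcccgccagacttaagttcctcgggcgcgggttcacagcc
Ppargc1a, chr14:63634058-63634307: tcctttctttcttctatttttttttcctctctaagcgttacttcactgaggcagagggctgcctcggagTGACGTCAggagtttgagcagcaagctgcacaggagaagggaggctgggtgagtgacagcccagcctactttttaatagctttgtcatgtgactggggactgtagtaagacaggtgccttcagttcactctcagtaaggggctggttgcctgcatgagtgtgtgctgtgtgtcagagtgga
The Ppargc1a stretch held the cAMP response element once, starting at -181, a motif found in 1.59% of 33469 promoter windows of this length. The Ucp3 stretch held the half-site at -155 and -50, which 14.1% of windows hold at least once. The Ucp2 stretch held none of the 4 motifs, and the ERR element was in 1.04% of windows and in none of the 10 genes' windows. All 10 genes had a window in the table. A match in these letters is a description of the sequence only.

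The signal of the genes covered nearly the whole range of the arrays, with Ucp1, Prdm16, Dio2 and Elovl3 at the dim end and Cidea near the bright end. A probe set was tested if its mean over the 5 arrays lay above the 30th percentile of all probe sets, a level of 4.28. Of the 14 probe sets 7 passed, from 6 genes, and each of the 7 passed on the mean of either diet alone. Ppargc1a 1393743_at was the nearest under this limit at 3.74, and Ppargc1a 1395518_at the nearest above it at 5.44. Passing is not a detection call, as 4 of 6 olfactory receptor probe sets passed too, with a highest mean of 5.14. The 42 probe sets of genes of other organs, such as sperm, eye and pituitary genes, had a median of 3.82 and a 90th percentile of 5.47. The deposited values carry no detection calls, and probe sets bind with different strength, so a level places a probe set within the array and does not rank transcripts.

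**Figure D1:**
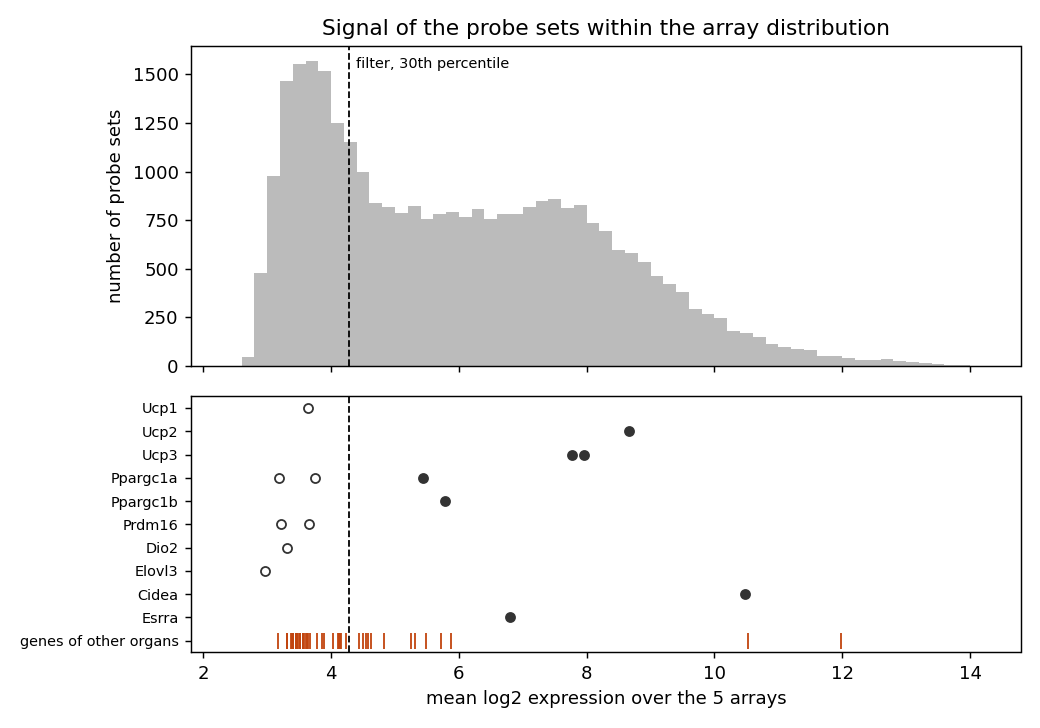
Upper panel, number of probe sets by mean log2 expression over the 5 arrays. Lower panel, the 14 uncoupling and thermogenic probe sets (filled, past the filter; open, under it) and the 42 probe sets of genes of other organs (red ticks) on the same axis. Ucp1, Prdm16, Dio2, Elovl3 and 2 of 3 Ppargc1a probe sets sit within the low peak, and Cidea at 10.48 sits far to the right.

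Ucp1, the heat-making uncoupler, was at the low end on every array. Its probe set 1387033_at read 3.61 and 3.61 in cafeteria samples, against 3.61, 3.72 and 3.61 in standard samples. Exactly the same value stood on 4 of the 5 arrays, and it occurs 749 times in the whole table, a stepped value that many dim probe sets share. The mean lay at the 15.4th percentile of the array. In the fit without a filter the difference was -0.04 ± 0.05 (SE), with a 95% interval of -0.18 to 0.10.

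Dio2 and Elovl3 were dim on all 5 arrays too. Dio2, the enzyme that makes active thyroid hormone, read 3.34 and 3.24 in cafeteria samples, against 3.32 on all 3 standard arrays. Elovl3, an enzyme that lengthens fatty acids and that cold induces in mouse brown fat, read 2.94 and 2.94 in cafeteria samples, against 3.07, 2.94 and 2.89 in standard samples. They lay at the 7.16th and 1.25th percentile of the array. For Dio2 the groups overlapped and the difference was -0.03 ± 0.05, and for Elovl3 they overlapped too, at -0.02 ± 0.07.

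Prdm16 had a pair of probe sets, both under the filter. Probe set 1397343_at read 3.61 and 3.53 in cafeteria samples, against 3.61, 3.72 and 3.80 in standard samples. Probe set 1396009_at read 3.00 and 3.43 in cafeteria samples, against 3.32, 3.02 and 3.32 in standard samples. Neither separated the diets, and the differences were -0.14 ± 0.07 and 0.00078 ± 0.18. A change in Ucp1, Dio2, Elovl3 or Prdm16 was not detectable at this signal, which does not show that there was none.

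Cidea stood apart from this picture. It codes for a lipid droplet protein that mouse studies describe as abundant in brown fat, and its probe set lay at the 96.9th percentile of the array mean. Cidea read 10.58 and 10.73 in cafeteria samples, against 10.07, 10.43 and 10.58 in standard samples. The lower cafeteria array and the highest standard array differed only in the third decimal (10.577 and 10.575), and standard replicate 1 was the lowest. The difference was 0.30 ± 0.17, a 1.23-fold higher mean with a 95% interval of 0.90 to 1.68-fold, and it did not pass (limma, adjusted p = 0.501). With standard replicate 1 left out it was 0.15.

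Ucp3, a mitochondrial carrier best known from skeletal muscle and brown fat, had a pair of probe sets, both well inside the measured range. Probe set 1387681_at read 8.07 and 8.23 in cafeteria samples, against 7.95, 7.63 and 7.91 in standard samples. Its value on cafeteria replicate 2, the highest of the 5, occurs 26 times in the table. Probe set 1382958_at read 8.03 and 8.04 in cafeteria samples, against 7.57, 7.41 and 7.83 in standard samples. On both probe sets the cafeteria arrays lay above all standard arrays.

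The Ucp3 differences were 0.32 ± 0.12 and 0.43 ± 0.14, or 1.25-fold and 1.35-fold, with limma adjusted p of 0.402 and 0.345, so neither was called. By the exact permutation test (two-sided) p was 0.1 and 0.2, where 0.1 is the smallest that the 10 splits of 5 arrays allow. Both probe sets stayed positive whichever array was left out, between 0.22 and 0.40 for the first and between 0.33 and 0.54 for the other. The lowest value came without standard replicate 2 on both.

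The other carrier, Ucp2, which is expressed in many tissues and in immune cells, had the largest spread over the arrays among the probe sets past the filter. It read 9.19 and 8.55 in cafeteria samples, against 8.18, 8.86 and 8.55 in standard samples. The groups overlapped, with standard replicate 2 above cafeteria replicate 2. The difference of 0.34 ± 0.29 had an interval from 0.74 to 2.15-fold and did not pass (limma, adjusted p = 0.590). Leaving out cafeteria replicate 1 gave 0.01 and leaving out cafeteria replicate 2 gave 0.66, while leaving out standard replicate 1 or 2 gave 0.16 or 0.50. Macrophage markers, 11 genes past the filter, averaged 9.61 and 9.25 on the cafeteria arrays, against 9.92, 9.85 and 9.35 on the standard arrays. The part of these cells in the Ucp2 signal was not tested.

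**Figure D2:**
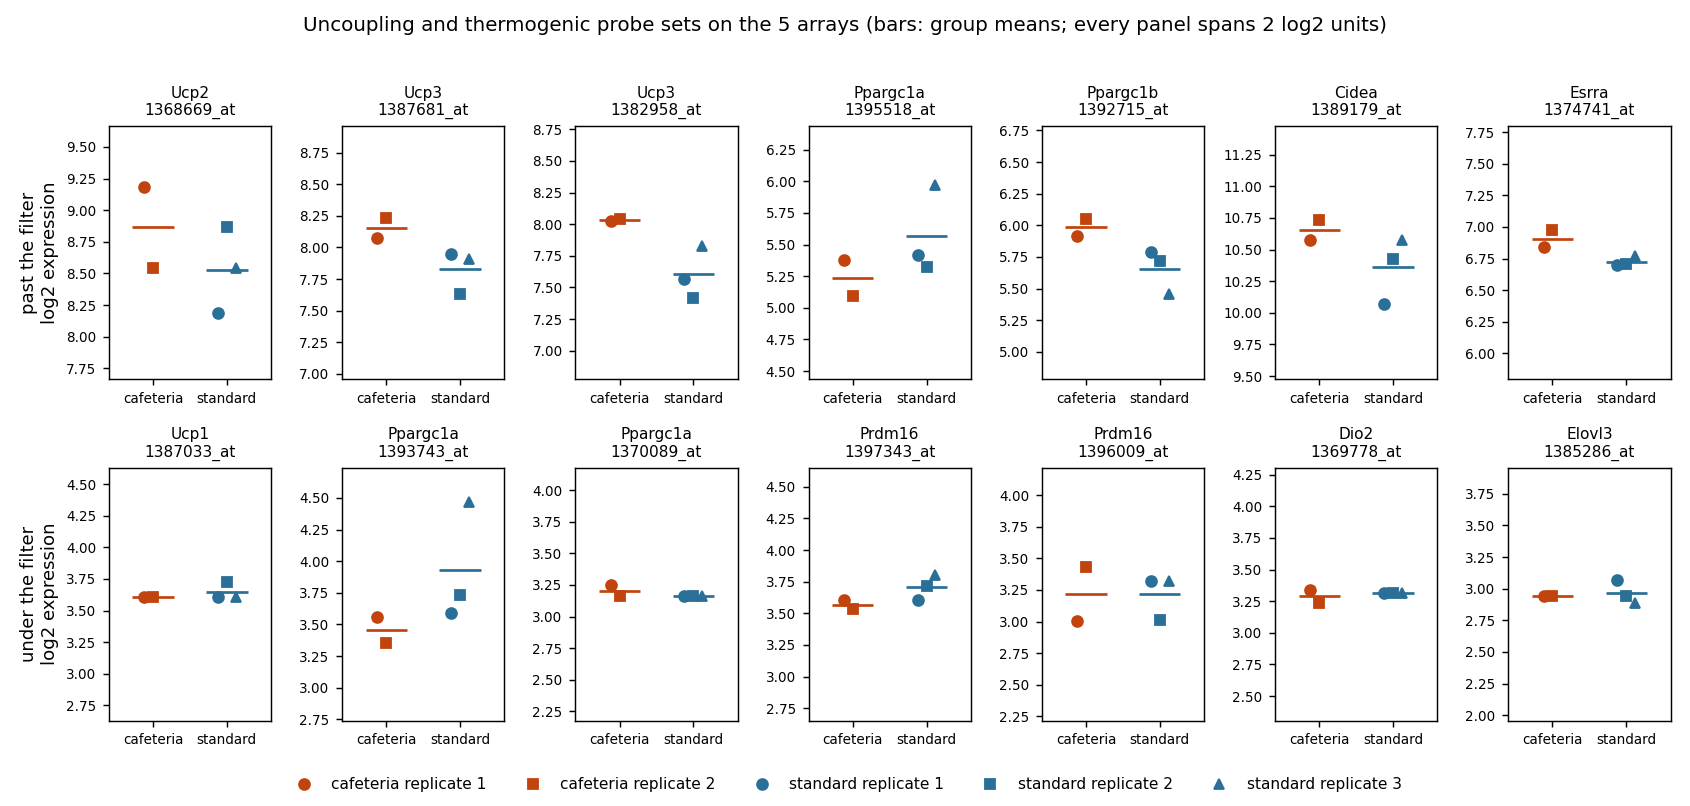
Log2 expression of each of the 14 probe sets on the 5 arrays, cafeteria left and standard right, with a bar at each group mean and a 2-unit span in every panel. The upper row is past the filter and the lower row under it, and the 5 arrays of Ucp1 span only 0.11.

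The coactivators and their nuclear receptor partner came next. PGC-1beta (Ppargc1b), a relative of PGC-1alpha that drives mitochondrial genes, read 5.92 and 6.05 in cafeteria samples, against 5.79, 5.72 and 5.45 in standard samples. The groups did not overlap, and the difference was 0.33 ± 0.12, or 1.26-fold (limma, adjusted p = 0.388, unadjusted p = 0.0470). It was 0.23 without standard replicate 3 and 0.40 without standard replicate 1 or cafeteria replicate 1. The value of standard replicate 2 is a stepped value that occurs 40 times in the table.

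ERRalpha (Esrra), the orphan nuclear receptor through which PGC-1 proteins raise mitochondrial genes, read 6.84 and 6.98 in cafeteria samples, against 6.70, 6.71 and 6.77 in standard samples. The 3 standard arrays were close together and both cafeteria arrays lay above them. The values of standard replicates 2 and 3 are stepped values that occur 50 and 52 times in the table. The small spread of the standard group is therefore to be read with care. The difference was small, 0.18 ± 0.07 or 1.14-fold, and did not pass (limma, adjusted p = 0.380, unadjusted p = 0.0443). With cafeteria replicate 2 left out it was 0.11, and with cafeteria replicate 1 left out 0.25.

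PGC-1alpha (Ppargc1a), the cold- and cAMP-responsive coactivator whose upstream stretch held the cAMP response element, was the only gene past the filter with a lower mean in cafeteria samples. Its brightest probe set, 1395518_at, read 5.38 and 5.10 in cafeteria samples, against 5.42, 5.32 and 5.97 in standard samples. Only standard replicate 3 lay above 5.47, the 90th percentile of the probe sets of genes of other organs, and the mean of 5.44 lay under it. The groups overlapped, with standard replicate 3 far above the rest. The value of standard replicate 1 is a stepped value that occurs 260 times in the table. Probe set 1393743_at, under the filter, read 3.56 and 3.35 in cafeteria samples, against 3.59, 3.74 and 4.47 in standard samples. The groups did not overlap there, with cafeteria lower, and standard replicate 3 was again highest. The remaining probe set, 1370089_at, read 3.25 and 3.16 in cafeteria samples, against 3.16 on all 3 standard arrays, a stepped value that occurs 506 times in the table.

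The difference of 1395518_at was -0.33 ± 0.24, with an interval from 0.51 to 1.23-fold (limma, adjusted p = 0.535). Without standard replicate 3 it was -0.13, and that of 1393743_at was -0.21 in place of -0.48. Standard replicate 3 was also the array with the most smooth muscle transcripts. A list of 11 smooth muscle markers, added after the values were seen, averaged 8.86 and 8.33 on the cafeteria arrays, against 9.40, 8.03 and 10.64 on the standard arrays. The 19 skeletal muscle markers on the array, of which 7 passed the filter, averaged 4.63 and 4.58 on the cafeteria arrays, against 4.64, 4.48 and 4.94 on the standard arrays. Standard replicate 3 was highest on both lists, and the part of muscle cells in the Ppargc1a value was not tested.

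**Figure D3:**
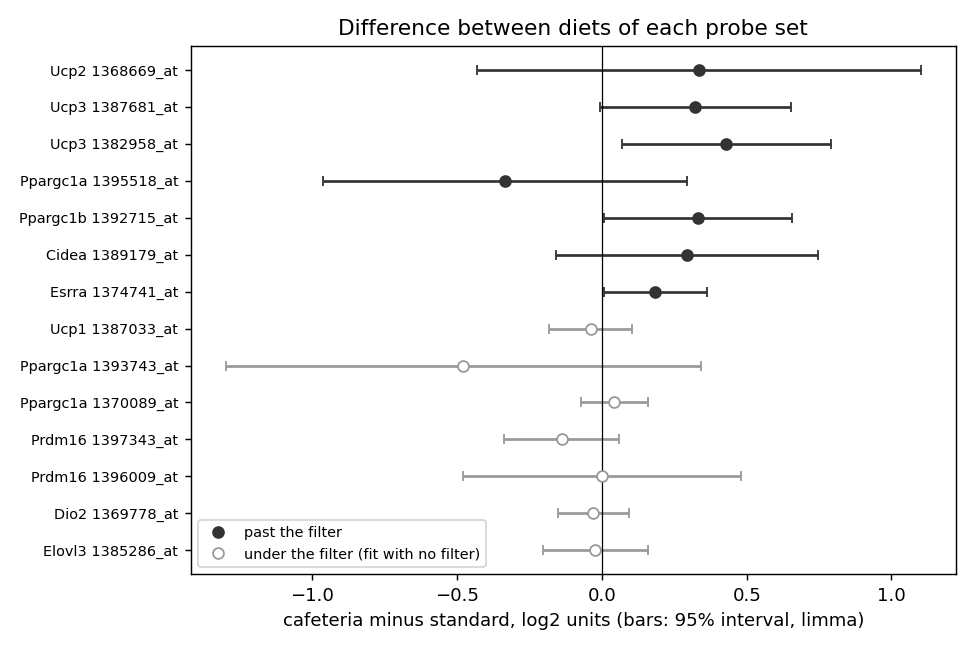
Difference between diets, cafeteria minus standard in log2 units, of each of the 14 probe sets with its 95% interval from limma. Filled points passed the filter and open points come from the fit without a filter. The intervals of Ucp3 1382958_at, Ppargc1b and Esrra lie above 0 before adjustment, and that of Ppargc1a 1395518_at spans 0.

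Of the 7 probe sets past the filter 6 had a higher mean in cafeteria samples and 0 passed an adjusted p of 0.05 in limma, where 0% of 21729 probe sets passed. At an unadjusted p under 0.05 there were 3, all higher, where 6.05% of all probe sets were called in that direction. The groups did not overlap for 5 of the 7, all with cafeteria higher, against 13.3% of all probe sets in that direction. The 5 come from 4 genes, since both Ucp3 probe sets are among them. Their median difference was 0.32, against 0.00 (-0.0036) over all probe sets. The count at an unadjusted p under 0.05 was 0 without cafeteria replicate 2 or standard replicate 2, and 1 without cafeteria replicate 1 or standard replicate 1.

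Markers of fat cells also had higher means on the cafeteria arrays. The 11 adipocyte markers measured, such as those for lipid droplet proteins and lipases, averaged 11.84 and 11.99 on the cafeteria arrays, against 11.34, 11.51 and 11.50 on the standard arrays, and their median difference was 0.33. All 11 had a positive difference, 6 of them at an unadjusted p under 0.05, where 6.73% of 11509 genes with 1 probe set each were higher, and 0 passed the test. Without standard replicate 1 this median was 0.24, and that of the 6 uncoupling and thermogenic genes past the filter was 0.17, against 0.31 with all arrays. Endothelial markers, 10 genes, had a median difference of -0.38 and lymphocyte markers, 12 genes, of -0.51, in each case with 0 positive. Of these, 4 endothelial genes and 0 lymphocyte genes were lower at an unadjusted p under 0.05, beside 6.88% of all genes, and 0 passed the test. Leaving out cafeteria replicate 1 or 2 gave medians of -0.17 or -0.65 for the endothelial and -0.80 or -0.24 for the lymphocyte list. Pancreatic acinar markers averaged 8.01 on standard replicate 1 and 4.36 to 4.59 on the other 4 arrays. In bulk tissue, fewer cells of a type and less RNA per cell cannot be told apart, and the part of cell make-up in the values of Cidea, Ucp3, Ppargc1b and Esrra was not tested.

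**Figure D4:**
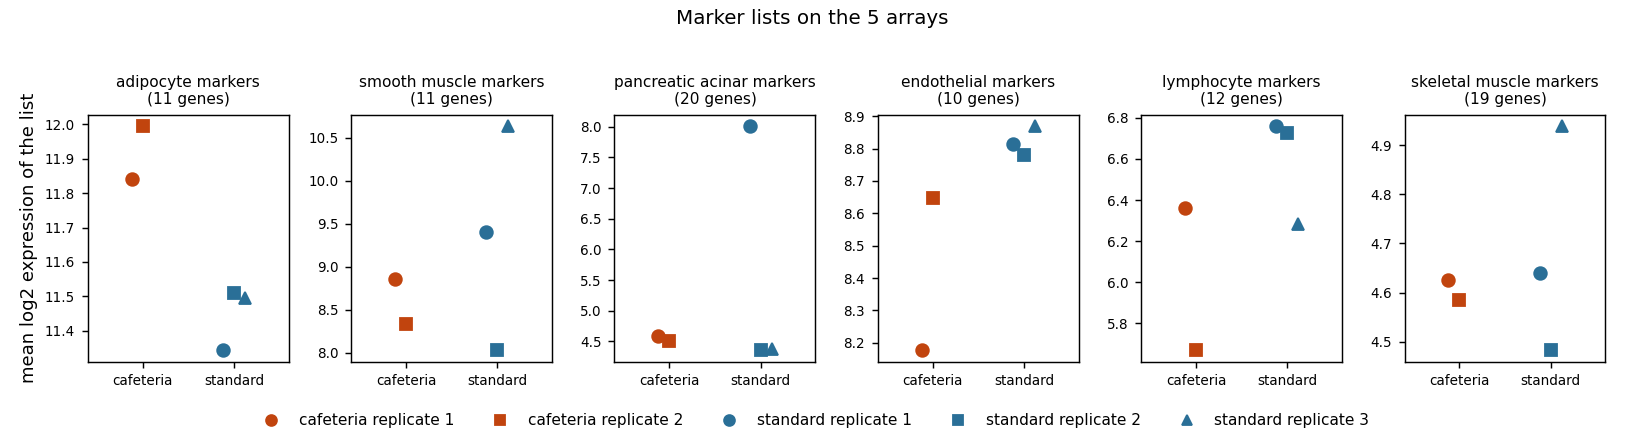
Mean log2 expression of 6 marker lists on each array, cafeteria left and standard right, each panel on its own scale. Adipocyte markers are higher on both cafeteria arrays, acinar markers stand out on standard replicate 1 at 8.01, and smooth muscle markers on standard replicate 3 at 10.64.

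Of 32 further genes listed for brown fat identity 23 were on the array and 19 passed the filter. These 19 had 12 positive and 7 negative differences, a median of 0.08 and 0 past the test. At an unadjusted p under 0.05 there were 6 higher and 3 lower, where 6.73% and 6.88% of 11509 genes were called in those directions. Fabp3, a fatty acid binding protein of heart, muscle and brown fat, read 7.87 and 8.42 in cafeteria samples, against 6.34, 6.43 and 6.56 in standard samples. P2rx5, an ATP-gated channel on brown fat cells in mice, read 7.02 and 7.42 in cafeteria samples, against 6.52, 6.36 and 6.38 in standard samples. Glycerol kinase (Gk) read 6.08 and 6.37 in cafeteria samples, against 5.56, 5.86 and 5.75 in standard samples. The groups did not overlap for any of the 3, and their limma adjusted p ranged from 0.195 for Fabp3 to 0.306 for Gk. They were named for their small p within the list, so this separation is a description only. In the other direction Slc36a2, an amino acid transporter used as a brown fat surface marker, differed by -0.39 (limma, adjusted p = 0.392) and Mpzl2 by -0.44, so markers of the same fat type lay on both sides; these 2 were named after their values were seen.

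Target genes of PGC-1 and ERRalpha had small differences, mostly positive. Of 22 listed, 19 were on the array and all passed the filter. Of these 17 had a positive difference, the median was 0.11, 2 were higher at an unadjusted p under 0.05, a share near the 6.73% of all genes, and 0 passed the test. Cpt1b, the muscle and brown fat form of the enzyme that admits fatty acids to mitochondria, read 7.80 and 7.99 in cafeteria samples, against 7.25, 7.42 and 7.60 in standard samples. Ndufb5, a subunit of respiratory complex I, read 10.87 and 10.90 in cafeteria samples, against 10.60, 10.71 and 10.65 in standard samples. Both had cafeteria arrays above all standard arrays, with differences of 0.47 ± 0.13 and 0.23 ± 0.06 (limma, adjusted p = 0.315 and 0.281). They too were named for their small p within the list. The list median was 0.03 with cafeteria replicate 2 left out and 0.22 with cafeteria replicate 1 left out.

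Of the partners of PGC-1 in making mitochondria 27 were on the array and 25 passed the filter, 16 with a positive difference and a median of 0.06. At an unadjusted p under 0.05 there were 2 higher, beside 6.73% of all genes, and 0 passed the test. Mfn2, which fuses mitochondria, read 9.84 and 9.92 in cafeteria samples, against 9.50, 9.69 and 9.60 in standard samples, and the deacetylase gene Sirt3 differed by 0.16 ± 0.06 (limma, adjusted p = 0.389). Ppard, a nuclear receptor for fatty acids, lay lower on both cafeteria arrays than on all standard arrays, by -0.19 ± 0.08 (limma, adjusted p = 0.441). In this list 4 of the 25 genes lay apart with cafeteria higher, beside 13.3% of all probe sets past the filter. Another 3 lay apart with cafeteria lower, a direction for which no share of all probe sets is given. These counts are a description only. Of the PRDM16 partners 9 were on the array and 8 passed the filter, with 3 positive and 5 negative differences and a median of -0.03. At an unadjusted p under 0.05 there were 0, beside 6.73% of all genes higher and 6.88% lower. Mecom, a relative of PRDM16, also lay lower on both cafeteria arrays, by -0.58 ± 0.23 (limma, adjusted p = 0.407). Of the CIDE and ELOVL relatives 6 were on the array and 5 passed the filter, with 4 positive differences. Of these 5, 1 was higher at an unadjusted p under 0.05, beside 6.73% of all genes, and 0 passed the test. Cidec, the white fat counterpart of Cidea, read 12.62 and 12.90 in cafeteria samples, against 12.27, 12.39 and 12.45 in standard samples. Elovl6, which lengthens newly made fatty acids, was the 1 gene of this list with a negative difference and read 7.91 and 8.64 in cafeteria samples, against 8.48, 10.20 and 9.60 in standard samples. Its groups overlapped, and the difference of -1.15 ± 0.58 did not pass (limma, adjusted p = 0.479).

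Genes listed for thermogenic signalling were split between the directions. Of 21 genes on the array 19 passed the filter, 10 with a positive and 9 with a negative difference, the median was 0.06 and 0 passed the test. At an unadjusted p under 0.05 there were 4 higher and 1 lower, beside 6.73% and 6.88% of all genes. Fgf21, a hormone that acts on fat, read 5.27 and 5.43 in cafeteria samples, against 4.85, 4.85 and 4.69 in standard samples. Its groups did not overlap, and the difference was 0.55 ± 0.09 (limma, adjusted p = 0.229). Every value lay under 5.47, the 90th percentile of the probe sets of genes of other organs. Of those genes 12 passed the filter, and 2 lay apart with cafeteria higher, beside 13.3% of all probe sets past the filter. Another 1 lay apart with cafeteria lower, a direction for which no such share is given. The pituitary gene Pomc among them differed by 0.40 (limma, adjusted p = 0.225). Prkar2b, a regulatory subunit of protein kinase A, read 11.89 and 12.21 in cafeteria samples, against 11.57, 11.61 and 11.61 in standard samples. Prkacb, a catalytic subunit of the same kinase, read 10.21 and 9.95 in cafeteria samples, against 10.50, 10.45 and 10.32 in standard samples. Prkar2b and Prkacb, both named for their small p, thus had differences of opposite sign, 0.46 ± 0.11 and -0.34 ± 0.11 (limma, adjusted p = 0.281 and 0.345). Prkaca, another catalytic subunit in the list, differed by 0.18 ± 0.21 (limma, adjusted p = 0.686), so the catalytic subunits did not share a sign. Adrb1, the beta-1 adrenergic receptor, differed by 0.27 ± 0.09 at a level of 5.20 in cafeteria and 4.92 in standard samples, also under 5.47.

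For other ways of making heat the differences had both signs. Of 17 genes on the array for creatine cycling, calcium pumping and other mitochondrial carriers 12 passed the filter. Of these 7 had a positive and 5 a negative difference, with 1 lower at an unadjusted p under 0.05, beside 6.88% of all genes, and 0 past the test. Slc25a14, a mitochondrial carrier related to the uncoupling proteins, read 6.29 and 6.23 in cafeteria samples, against 6.41, 6.43 and 6.47 in standard samples. It lay lower on both cafeteria arrays, by -0.18 ± 0.05 (limma, adjusted p = 0.330).

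**Figure D5:**
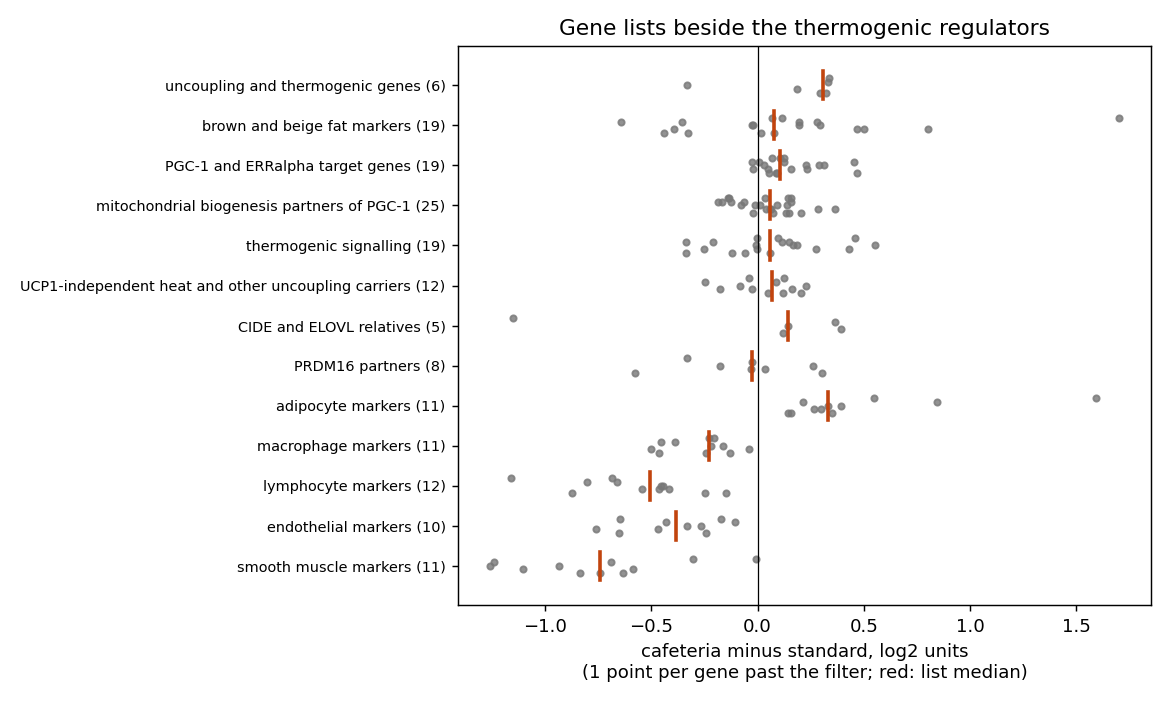
Difference between diets, cafeteria minus standard in log2 units, of each gene of 13 lists, 1 grey point per gene past the filter and a red bar at the list median, with the number of genes in brackets. The median of the uncoupling and thermogenic genes, 0.31 over 6 genes with 1 probe set each, stands beside 0.33 for adipocyte markers, 0.11 for PGC-1 and ERRalpha targets and 0.08 for brown and beige fat markers.

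For the 3 genes of the set with the largest spread over the arrays, by the brightest probe set of each gene past the filter, the most similar of 11508 other genes were sought, by the root mean square distance between centred profiles over the 5 arrays. For Cidea they were catalase (Cat), Ogdh and Sort1, at 0.03 to 0.04 log2 units, all lowest on standard replicate 1. For Ppargc1a they were Dzip1l, Tac1 and Foxf1, at 0.04 to 0.05, all highest on standard replicate 3. For Ucp2 they were Opa3, Col1a1 and Epn1, at 0.10 to 0.11. With 5 arrays and this many genes, close profiles are easily found, and the distances are given as a description.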

How the data were processed

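The values analysed are log2 expression levels per probe set as the authors deposited them, 1 sample per array, from Affymetrix rat genome arrays. RMA and the affy package made them, per the submitters' processing notes, without versions. Array medians were 5.70 to 5.75. RMA makes array distributions alike, which can hide a shift of most transcripts. Between 11.7% and 14.7% of values were identical between any pair of arrays, and no pair was merged.

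From 31042 non-control probe sets, the 21729 with a mean above the 30th percentile were fitted with lmFit and eBayes of limma 3.58.1 (R 4.3.3), cafeteria minus standard, and p-values were adjusted by Benjamini-Hochberg over all of them and called at 0.05. Single values had an exact permutation test of the absolute difference of means. Symbols came from GEO's platform annotation, with 1 symbol for 20826 probe sets. Lists used the probe set with the highest mean per gene. Genes named are all probe sets of the 10 genes and up to 4 genes per list with the smallest p. Groups that do not overlap are likely among genes picked by p. The share of all probe sets apart with cafeteria lower is not given. The genes and lists were chosen with earlier results of these data known. The procedure was also run on simulated data with independent normal errors and no stepped values. That run cannot show how the procedure behaves on the stepped values here. The number of arrays limits precision, and p-values measure the spread between these samples. Alternatives were other filters, normalizations, variance models, array weights, a block for replicate number and each array left out in turn.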

Additional observations from a re-analysis of the deposited data

How the results depend on the processing

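No probe set of the 10 genes, and none of the whole table, passed an adjusted p of 0.05 in limma under any alternative run. These were no filter, a filter at the 50th percentile, quantile or cyclic loess normalization, a variance trend with robust fit, array weights, the replicate block, the mean of all probe sets of a gene (for the 10 genes and the lists) and leaving out each array in turn. Each of the 7 tested probe sets kept the sign of its difference in all of them where it was tested. The number of these probe sets at an unadjusted p under 0.05, 3 over all arrays, ranged from 0 to 2 when 1 array was left out, and over the whole table that number was 2754 with all arrays and 4171 without cafeteria replicate 1. With the replicate block it was 2 of the 7 and 2206 over the table. The titles share replicate numbers but nothing says that they pair animals. The deviations of same-numbered arrays from their group means correlated at 0.08 and -0.04. These values cannot decide about pairing, since the deviations of 2 cafeteria arrays mirror each other. The difference with the block equals that without standard replicate 3, which has no partner, and was 0.54 for Ucp3 1382958_at and -0.13 for Ppargc1a 1395518_at. Ucp2 ranged from 0.01 to 0.66 over the arrays left out, and Cidea from 0.15 to 0.40. Under the filter, leaving out cafeteria replicate 1 or 2 gave -0.08 or 0.02 for Dio2. The dim signal of Ucp1, Dio2, Elovl3 and Prdm16, where stepped values recur, limits what could be seen for them. The median of the thermogenic signalling list was -0.0026 without standard replicate 1, against 0.06. Without a filter, over all 10 uncoupling and thermogenic genes, their median was 0.08, against 0.31 over the 6 past the filter. That of the adipocyte markers was 0.33 either way, so the nearness of these medians holds only for the 6 brighter genes.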
